A study of Mus musculus with 6 samples.

Results

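The 31 genes described here code for surface and effector proteins of homeostatic microglia, the resting state of the resident macrophages of the brain and spinal cord. They are a fixed list of symbols, matched through the Ensembl identifiers of the count table. All 31 were found among the 55401 genes of the count table, and all 31 passed the filter on low counts that left 16248 genes to test. RNA was sequenced from microglia bound to CD11b beads, CD11b being an integrin of myeloid cells, from untreated spinal cords of mice aged 7 months. Double mutants (ATXN2-Q33;TDP-43), labelled as heterozygous knock-in hATXN2-Q33 with hTDP-43, were set against non-transgenic mice (NTg, C57BL/6). Each group had 3 libraries from 9 animals, each library a pool of 3 spinal cords: double mutants 8, 10 and 12, and NTg 7, 9 and 11, numbered as the labels number them. CPM is the counts of a gene scaled to the normalized size of its library. No promoter or cell type that drives the altered genes is given in the sources used here.

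Homeostatic microglia survey the tissue through receptors for neuronal and matrix ligands and depend on survival signals through the receptor of colony-stimulating factor. Transforming growth factor beta and the transcription factor PU.1 are known to maintain this programme, and many of its genes are known to fall when microglia turn to the disease-associated state. In bulk RNA, fewer cells of a type and less RNA per cell cannot be told apart, which bears on every level below.

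Total counts ran from 12553570 to 22854628 per library, and each member had between 384 and 133693 counts in every library. Defining microglial markers outside the list were abundant in all 6 libraries. Sall1, a transcription factor of microglial identity, measured 447, 391 and 585 CPM in double mutants 8, 10 and 12, against 443, 423 and 541 CPM in NTg 7, 9 and 11. The 7 such markers summed to 7745, 6332 and 9142 CPM in double mutants 8, 10 and 12, against 8018, 7165 and 9182 CPM in NTg 7, 9 and 11, and none was at 0.

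Of a library's counts, the 31 genes together made up 2.31% to 3.04%. Per kilobase of exon the members spanned a 259.6-fold range, and 21 of 31 ranked among the 500 most abundant of all genes. Cst3, cystatin C, a secreted inhibitor of cysteine proteases, had the highest level per length at 3631 ± 831 in the double mutants and 4042 ± 697 in NTg (CPM per kilobase, SD, n = 3 each). Csf1r followed at 745 ± 132 in the double mutants and 751 ± 74.1 in NTg. Next were Rhob at 546 ± 91.6 in the double mutants and 515 ± 65.4 in NTg, and Cx3cr1 at 399 ± 67.3 in the double mutants and 406 ± 33.4 in NTg. Neighbours in this order, such as Cx3cr1 and Serinc3 (366 ± 46.1 in the double mutants and 375 ± 27.5 in NTg), lay within their spread between libraries. At the low end stood Nrip1 at 21.7 ± 3.46 in the double mutants and 20.9 ± 3.10 in NTg and Gal3st4 at 14.97 ± 3.14 in the double mutants and 14.6 ± 1.89 in NTg.

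**Figure D1:**
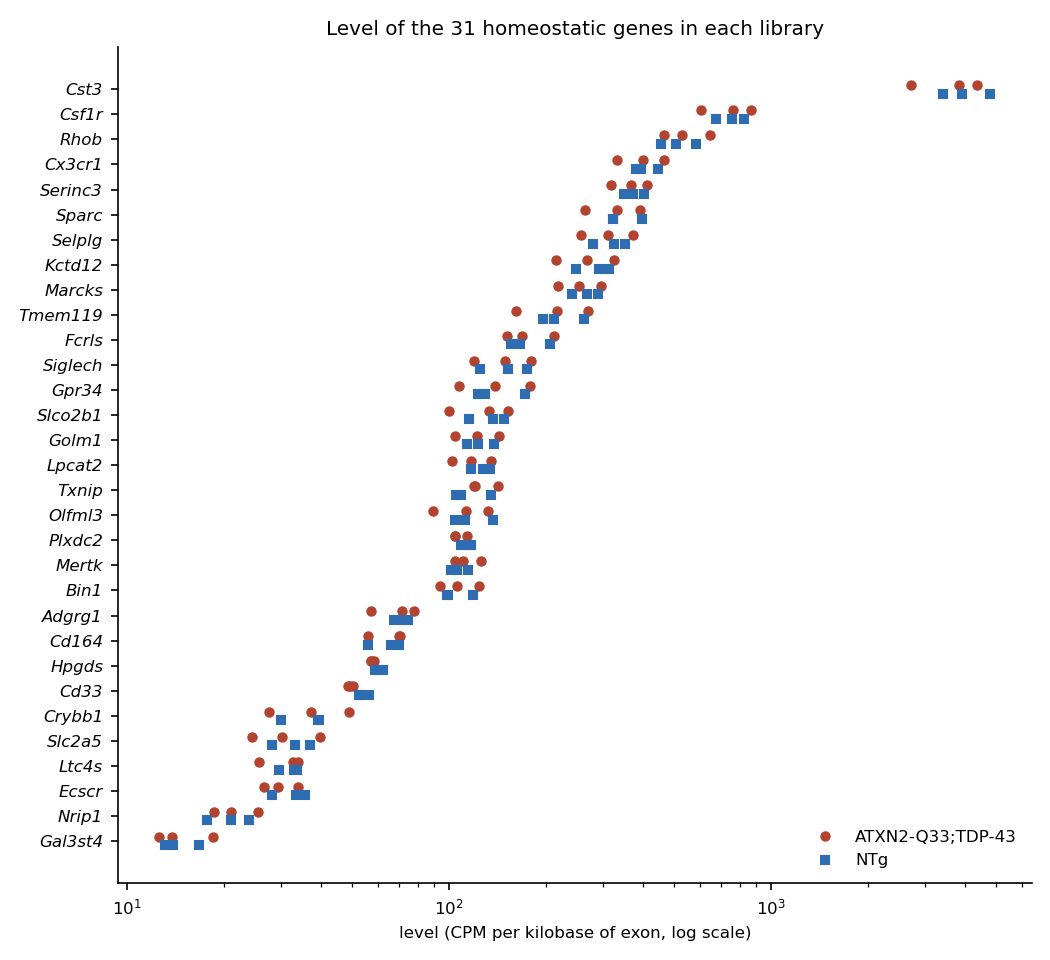
Level of each of the 31 genes in CPM per kilobase of exon (log axis), one point per library, ATXN2-Q33;TDP-43 as circles above NTg as squares. Genes run from Cst3 at the top to Gal3st4 at the bottom, and the circles of most genes reach over the squares on both sides.

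No member passed the test of a difference between the genotypes. In edgeR (quasi-likelihood test, Benjamini-Hochberg over 16248 genes), 0 of 31 members passed an adjusted p of 0.05, where 0.0% of all genes tested did. At an unadjusted p under 0.05 there were 0 of 31 members, against 2.26% of all genes tested. DESeq2 called 0 of 31 members, where it called 0.0431% of all genes. With limma voom, for which the share of all genes is not given here, 0 of 31 members were called. Members called were also 0 with neighbouring sample codes as a covariate (0.437% of all genes), with no filter on low counts (0.0203%) and without double-mutant library 12 (0.0118%). The fold change was negative for 21 and positive for 10 members, where 48.0% of all genes were negative. Of the 8310 genes tested above 10 CPM, 4469 were negative and 3841 positive. The median log2 fold change was -0.04, against 0.01 over all genes tested and -0.01 over those above 10 CPM. Every 95% interval included 0. All 31 intervals lay within a 2-fold change either way and 30 of 31 within a 1.5-fold change, the exception being Cst3 with a lower bound of -0.59. The majority of negative signs turned with single libraries. Without ATXN2-Q33;TDP-43 library 10 the median was 0.09 with 26 of 31 positive, and without NTg library 11 it was 0.05 with 23 of 31 positive. Without ATXN2-Q33;TDP-43 library 12 it was -0.15 with 29 of 31 negative. The alignments of NTg libraries 7 and 9 are named as combined in the file headers, which do not state what was combined. This naming covers NTg libraries only. With it as a covariate the median was -0.16 with 31 of 31 negative, 0 of them past the test. The NTg value of that fit rests on NTg library 11 alone.

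**Figure D2:**
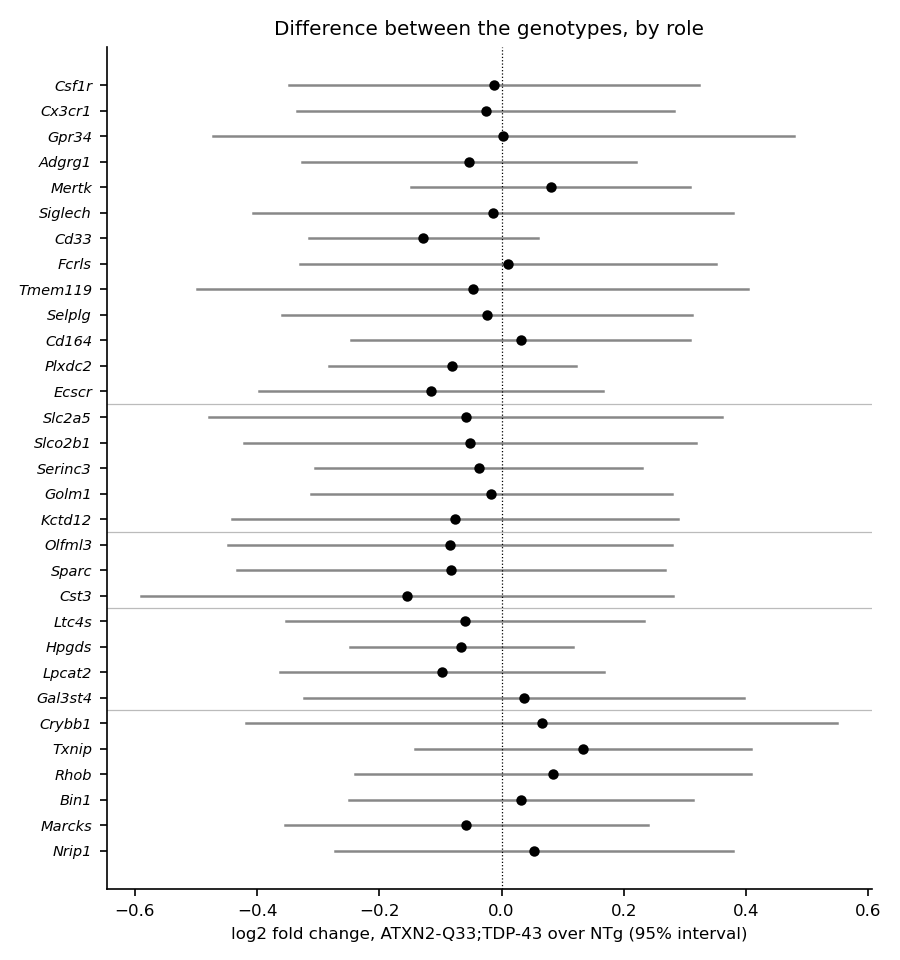
Log2 fold change of each of the 31 genes, ATXN2-Q33;TDP-43 over NTg, with its 95% interval from the edgeR fit (3 libraries each), in blocks by role. All 31 intervals cross 0, and the points lie between -0.15 for Cst3 and 0.13 for Txnip.

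Among the 13 surface receptors, 9 fold changes were negative and 4 positive, and their summed level was 11541, 9615 and 13322 CPM in double mutants 8, 10 and 12, against 11591, 10618 and 12794 CPM in NTg 7, 9 and 11. Csf1r, the receptor for the growth factors that keep microglia alive (mm10 chromosome 18, 61100598 to 61132149), measured 4396, 3493 and 5013 CPM in double mutants 8, 10 and 12, against 4348, 3906 and 4761 CPM in NTg 7, 9 and 11. Library 10 was the lowest and library 12 the highest of all 6, so the double mutants lay on both sides of NTg. Its log2 fold change was -0.01 ± 0.15 (SE, with 95% bounds of -0.35 and 0.32). Cx3cr1, the receptor for the neuronal chemokine fractalkine (mm10 chromosome 9, 119901616 to 120069879), had 1802, 1492 and 2099 CPM in double mutants 8, 10 and 12, against 1774, 1717 and 2001 CPM in NTg 7, 9 and 11. The groups overlapped in the same way and the log2 fold change was -0.03 ± 0.14 (SE, with 95% bounds of -0.33 and 0.28). Selplg, the ligand of selectins (mm10 chromosome 5, 113818536 to 113832644), was measured at 1335, 1094 and 1593 CPM in double mutants 8, 10 and 12, against 1391, 1198 and 1499.9 CPM in NTg 7, 9 and 11, with a log2 fold change of -0.02 ± 0.15 (SE, with 95% bounds of -0.36 and 0.31). Tmem119, a membrane protein used to mark microglia against infiltrating macrophages (mm10 chromosome 5, 113793729 to 113800516), had 502, 373 and 627 CPM in double mutants 8, 10 and 12, against 490.2, 454 and 607 CPM in NTg 7, 9 and 11. Its values again spanned those of NTg, with a log2 fold change of -0.05 ± 0.19 (SE, with 95% bounds of -0.50 and 0.40).

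Gpr34, a receptor for lysophosphatidylserine (mm10 chromosome X, 13632089 to 13640858), showed one of the widest spreads, with 291, 225 and 372 CPM in double mutants 8, 10 and 12, against 271, 257 and 359 CPM in NTg 7, 9 and 11. The difference between double-mutant libraries 12 and 10 was 0.73 on the log2 scale, while the log2 fold change between genotypes was 0.00 ± 0.20 (SE, with 95% bounds of -0.47 and 0.48). Mertk, the receptor by which phagocytes bind dying cells through Gas6 and protein S (mm10 chromosome 2, 128698956 to 128802894), differed less between libraries, at 454, 478 and 544 CPM in double mutants 8, 10 and 12, against 460.3, 439.7 and 496 CPM in NTg 7, 9 and 11. NTg library 9 was lowest and the groups overlapped, with a log2 fold change of 0.08 ± 0.10 (SE, with 95% bounds of -0.15 and 0.31). Plxdc2, a membrane protein with a plexin domain (mm10 chromosome 2, 16356304 to 16755839), gave 723, 724 and 791 CPM in double mutants 8, 10 and 12, against 797, 757 and 812 CPM in NTg 7, 9 and 11. The groups overlapped at a log2 fold change of -0.08 ± 0.09 (SE, with 95% bounds of -0.28 and 0.12). Ecscr, known in endothelium as a regulator of chemotaxis (mm10 chromosome 18, 35713086 to 35722356), had 51.6, 46.5 and 59.6 CPM in double mutants 8, 10 and 12, against 58.7, 49.5 and 62.8 CPM in NTg 7, 9 and 11. The least abundant receptor of the list by CPM, it had a log2 fold change of -0.12 ± 0.12 (SE, with 95% bounds of -0.40 and 0.17).

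Cd33 (mm10 chromosome 7, 43524216 to 43544428) had the smallest p of the 31. It codes for a sialic acid receptor whose human counterpart is a risk gene for Alzheimer's disease. Its values were 391, 376 and 384 CPM in double mutants 8, 10 and 12, against 411, 439 and 408 CPM in NTg 7, 9 and 11. All 3 double-mutant libraries lay below all 3 NTg libraries, with a log2 fold change of -0.13 ± 0.08 (SE, with 95% bounds of -0.31 and 0.06), and an unadjusted p of 0.156 in edgeR's fit. The two-sided exact test over permuted labels gave 0.1, the smallest p that 3 against 3 libraries allow. Groups without overlap were found for 2 of 31 members, Cd33 and Hpgds, both lower in the double mutants. That is a share of 6.45%, against 6.85% of all genes tested in either direction, 3.58% lower and 3.27% higher. The share of members was near the background.

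The other receptors had log2 fold changes between -0.05 and 0.03. Siglech, a sialic acid-binding lectin of microglia, averaged 506 ± 103 CPM in the double mutants and 511 ± 84.4 CPM in NTg (SD, n = 3 each). Fcrls, a scavenger receptor related to the Fc receptors, averaged 414 ± 73.0 CPM in the double mutants and 411 ± 61.4 CPM in NTg. Adgrg1, an adhesion receptor coupled to G proteins, averaged 372 ± 57.3 CPM in the double mutants and 386 ± 20.5 CPM in NTg. The sialomucin Cd164 averaged 291 ± 37.0 CPM in the double mutants and 285 ± 31.8 CPM in NTg. For each of these 4 genes the difference between the means was smaller than the SD of either group.

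Of the 5 transporters and membrane-associated proteins all had a negative fold change and none passed the test. Serinc3, a multipass membrane protein (mm10 chromosome 2, 163623272 to 163645131), measured 1408, 1226 and 1579.9 CPM in double mutants 8, 10 and 12, against 1431, 1342 and 1552 CPM in NTg 7, 9 and 11. Its log2 fold change was -0.04 ± 0.12 (SE, with 95% bounds of -0.30 and 0.23). Kctd12, an auxiliary subunit of receptors for gamma-aminobutyric acid (mm10 chromosome 14, 102976581 to 102982637), measured 1629, 1297 and 1974 CPM in double mutants 8, 10 and 12, against 1774, 1496 and 1896 CPM in NTg 7, 9 and 11. That corresponded to a log2 fold change of -0.08 ± 0.16 (SE, with 95% bounds of -0.44 and 0.29). In both genes double-mutant library 10 was the lowest and double-mutant library 12 the highest of the 6. Slc2a5, the fructose transporter of microglia, averaged 107 ± 26.2 CPM in the double mutants and 112 ± 15.01 CPM in NTg. Slco2b1, a carrier of organic anions, averaged 766 ± 159.7 CPM in the double mutants and 794 ± 97.1 CPM in NTg. Golm1, a protein of the Golgi membrane, averaged 545 ± 86.3 CPM in the double mutants and 552 ± 54.6 CPM in NTg (SD, n = 3 each). An exon of the microRNA gene Mir5130 lies within Kctd12 on the same strand, and its reads count for both.

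The 3 secreted proteins also had negative fold changes. Cst3 (mm10 chromosome 2, 148871722 to 148875692), whose transcript was the most abundant of the list, measured 4831, 3448 and 5513 CPM in double mutants 8, 10 and 12, against 4959, 4326 and 6068 CPM in NTg 7, 9 and 11. Double-mutant library 10 was the lowest and NTg library 11 the highest of all 6, and the log2 fold change was -0.15 ± 0.19 (SE, with 95% bounds of -0.59 and 0.28). Sparc, a matricellular glycoprotein (mm10 chromosome 11, 55394500 to 55423183), had 1256, 999 and 1479 CPM in double mutants 8, 10 and 12, against 1219.6, 1225 and 1509.6 CPM in NTg 7, 9 and 11. Its log2 fold change was -0.08 ± 0.15 (SE, with 95% bounds of -0.43 and 0.27). Olfml3, a secreted protein of the olfactomedin family, averaged 685 ± 133 CPM in the double mutants and 727 ± 106 CPM in NTg (SD, n = 3 each). Between genotypes this gave a log2 fold change of -0.08 ± 0.16 (SE).

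Enzymes of lipid mediators and their neighbours comprised 4 members. Hpgds, the haematopoietic synthase of prostaglandin D (mm10 chromosome 6, 65117293 to 65144908), had the smallest spread of the list, with 369, 367 and 375 CPM in double mutants 8, 10 and 12, against 385, 401 and 378 CPM in NTg 7, 9 and 11. The groups did not overlap, with a log2 fold change of -0.07 ± 0.08 (SE, with 95% bounds of -0.25 and 0.12) and the exact permutation test, two-sided, again gave 0.1. Lpcat2, an acyltransferase that makes platelet-activating factor (mm10 chromosome 8, 92855339 to 92919279), had 397, 346 and 458 CPM in double mutants 8, 10 and 12, against 432, 397 and 455 CPM in NTg 7, 9 and 11. The groups overlapped, with a log2 fold change of -0.10 ± 0.12 (SE, with 95% bounds of -0.36 and 0.17). Ltc4s, the synthase of cysteinyl leukotrienes, averaged 31.2 ± 4.48 CPM in the double mutants and 32.5 ± 2.26 CPM in NTg. The sulfotransferase gene Gal3st4 averaged 48.7 ± 10.2 CPM in the double mutants and 47.5 ± 6.15 CPM in NTg (SD, n = 3 each). Gal3st4 shares 3221 bases of exon with the gene model Gm43720 on the same strand, so its counts are uncertain. In the rest of the eicosanoid pathway, 14 of 20 genes were tested and 0 passed. Ptger4, a receptor of prostaglandin E, had 61.6, 64.2 and 61.9 CPM in double mutants 8, 10 and 12, against 73.0, 83.5 and 65.5 CPM in NTg 7, 9 and 11. The log2 fold change was -0.24 (SE 0.10) for Ptger4 and 0.21 (SE 0.11) for Lta4h, the hydrolase that makes leukotriene B.

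The 6 intracellular proteins were mostly positive, 5 of 6, although none passed. Txnip, an inhibitor of thioredoxin that responds to glucose (mm10 chromosome 3, 96557957 to 96561883), had the largest positive value of the list, with 375, 377 and 444 CPM in double mutants 8, 10 and 12, against 329, 339.5 and 421 CPM in NTg 7, 9 and 11. NTg library 11 lay inside the range of the double mutants, so the groups overlapped, and the log2 fold change was 0.13 ± 0.12 (SE, with 95% bounds of -0.14 and 0.41). Rhob, a small GTPase of endosomes and of early stress responses (mm10 chromosome 12, 8497661 to 8500009), measured 1244, 1091 and 1515 CPM in double mutants 8, 10 and 12, against 1186, 1071 and 1375 CPM in NTg 7, 9 and 11. Here too the groups overlapped, with a log2 fold change of 0.08 ± 0.14 (SE, with 95% bounds of -0.24 and 0.41). Crybb1, a beta-crystallin known from the lens and expressed in microglia (mm10 chromosome 5, 112255815 to 112269585), had the widest spread of the list, with 36.6, 27.2 and 48.2 CPM in double mutants 8, 10 and 12, against 38.7, 29.7 and 38.9 CPM in NTg 7, 9 and 11. Double mutants lay both highest and lowest, with a log2 fold change of 0.07 ± 0.21 (SE, with 95% bounds of -0.42 and 0.55). Bin1, an adaptor that bends membranes, averaged 444 ± 62.8 CPM in the double mutants and 435 ± 45.4 CPM in NTg. Marcks, a substrate of protein kinase C, averaged 1036 ± 161 CPM in the double mutants and 1079 ± 101 CPM in NTg. Nrip1, a corepressor of nuclear receptors, averaged 249 ± 39.7 CPM in the double mutants and 239.8 ± 35.5 CPM in NTg (SD, n = 3 each).

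The larger differences within the list lay between libraries of one genotype. Double-mutant library 12 exceeded double-mutant library 10 in 31 of 31 members, from 1.02-fold in Cd33 to 1.77-fold in Crybb1, with a median of 1.39-fold. Of all genes tested, 48.1% were higher in library 12, and of those above 10 CPM, 60.2%. Library 10 was the lowest of all 6 for 26 members (83.9%, against 19.8% of all genes tested and 27.8% of those above 10 CPM). Library 12 was the highest for 24 (77.4%, against 16.7% of all genes and 22.4% of those above 10 CPM). The double mutants stood in the order 10, 8, 12 from low to high for 27 of 31 members, against 21.0% of all genes. NTg stood in the order 9, 7, 11 for 25 of 31, against 20.7%. Of genes above 10 CPM, 30.7% had the order 10, 8, 12 and 27.6% the order 9, 7, 11. Both orders held for 23 members (74.2%), against 9.42% of all genes tested and 15.6% of those above 10 CPM. The 2 orders match by neighbouring sample codes, 9 with 10, 7 with 8 and 11 with 12, although the labels name no pairs. These orders were noticed in the data and are a description of 6 libraries. The members' median range on the log2 scale was 0.47 among the double mutants and 0.32 among NTg, against 0.42 and 0.38 over all genes. Over genes above 10 CPM it was 0.28 among the double mutants and 0.26 among NTg, below the members in both. The double mutants had the wider range in 28 of 31 members, against 57.0% of all genes and 55.5% of those above 10 CPM.

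**Figure D3:**
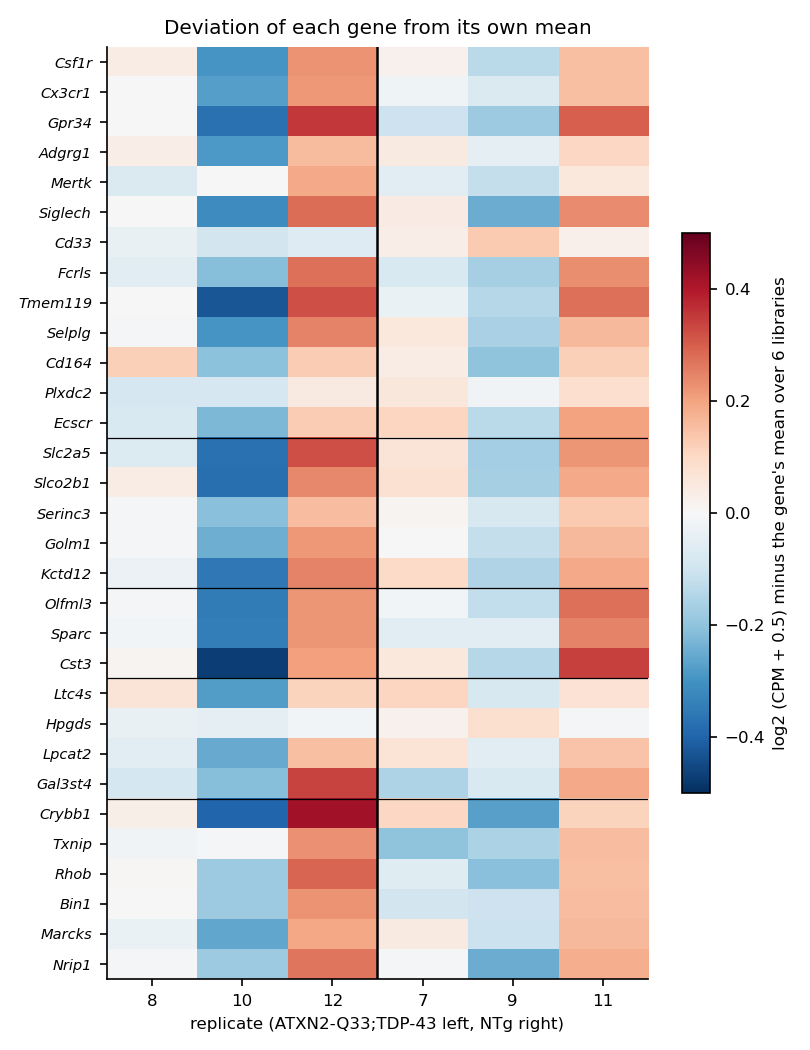
Log2 (CPM + 0.5) of each gene minus its mean over the 6 libraries, ATXN2-Q33;TDP-43 left of the line and NTg right, rows in blocks by role. Double-mutant library 10 is below the mean for 30 of 31 genes and library 12 above it for 29, and the rows of Cd33, Hpgds and Plxdc2 stay pale.

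Summed over the list, the level was 27002, 22024 and 31300.0 CPM in double mutants 8, 10 and 12, against 27322, 24833 and 30975 CPM in NTg 7, 9 and 11. The sums of the 2 groups overlapped, at 26776 ± 4642 CPM in the double mutants and 27710.0 ± 3089 CPM in NTg (SD, n = 3 each). Library 12 was 1.42-fold above library 10 while NTg library 11 was 1.25-fold above NTg library 9. Genes common to myeloid cells stood in the same order of libraries. A list of 20 pan-myeloid genes, none of them a member, summed to 19136, 15686 and 21482 CPM in double mutants 8, 10 and 12, against 19603, 17958 and 21861 CPM in NTg 7, 9 and 11. There were 1.41, 1.40 and 1.46 member counts per pan-myeloid count in the double mutants, against 1.39, 1.38 and 1.42 in NTg, so that the 6 libraries differed far less on this scale. Trem2, Ctss, C1qa, C1qb and C1qc stand in the pan-myeloid list and also among the other homeostatic genes, so the scale shares genes with the homeostatic programme.

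On this scale, an alternative whose spread was examined after the data were seen, the median within-group SD of the members was 0.07 log2 units, against 0.21 with CPM, while over all genes tested it was 0.30, against 0.23 with CPM. Over genes above 10 CPM the median SD with CPM was 0.15, below that of the members. The spread was smaller per pan-myeloid count for 27 of 31 members, against 21.1% of all genes. Per 1000 pan-myeloid counts, Csf1r had 229.7, 223 and 233 in double mutants 8, 10 and 12, against 222, 217 and 218 in NTg 7, 9 and 11. Golm1 had 28.3, 29.4 and 29.5 in double mutants 8, 10 and 12, against 27.8, 27.9 and 27.9 in NTg 7, 9 and 11. Over the list, the order 10, 8, 12 was left in 12 and the order 9, 7, 11 in 4 of 31 members. Of the 16248 genes tested, 416 stood in the order 10, 8, 12 and 927 in the order 9, 7, 11 on this scale. Cd33, Hpgds, Plxdc2 and Mertk were the 4 exceptions, whose spread was larger per pan-myeloid count. Of these, Hpgds had 19.3, 23.4 and 17.5 in double mutants 8, 10 and 12, against 19.7, 22.3 and 17.3 in NTg 7, 9 and 11, highest in the library of each genotype where most members were lowest by CPM.

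Scaled to pan-myeloid counts, 24 of 31 members had a positive and 7 a negative fold change. On this scale 0 of 31 members passed the test, as did 0 of the 16248 genes tested. The members' median was 0.04, but the median of all genes was then 0.10 and 8 of 31 members lay above it. Groups did not overlap for 6 members, Csf1r, Golm1, Txnip, Rhob, Bin1 and Nrip1, all higher in the double mutants, a share of 19.4%. Of all genes 5.39% were higher without overlap on this scale, 0.966% lower, and 6.36% in either direction. Since the scale narrowed the spread of most members but not of most genes, the shares of all genes are not a like background. Per 1000 pan-myeloid counts, Rhob had 65.0, 69.5 and 70.5 in double mutants 8, 10 and 12, against 60.5, 59.6 and 62.9 in NTg 7, 9 and 11, a scaled log2 fold change of 0.16 (SE 0.09). Txnip had 19.6, 24.0 and 20.7 in double mutants 8, 10 and 12, against 16.8, 18.9 and 19.3 in NTg 7, 9 and 11, a scaled log2 fold change of 0.22 (SE 0.12). Relative to the median of all genes these were 0.06 and 0.12, and those of Csf1r and Golm1 were -0.04 each.

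**Figure D4:**
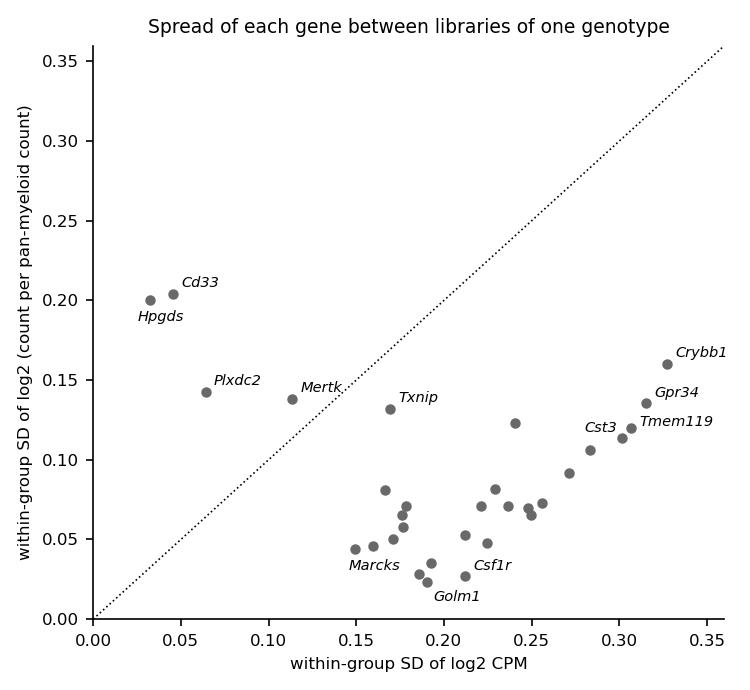
Within-group SD of each of the 31 genes (log2 scale, pooled over both genotypes), from CPM on the horizontal axis and from counts per pan-myeloid count on the vertical axis, with the line of equality dotted. Of the 31 points, 27 lie below the line, and Cd33, Hpgds, Plxdc2 and Mertk lie above it.

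Markers of other cells also differed between the libraries. Oligodendrocyte markers summed to 352, 1135 and 167 CPM in double mutants 8, 10 and 12, against 183, 1645 and 443 CPM in NTg 7, 9 and 11, and 9 of 9 tested were highest in library 10 among the double mutants and in library 9 among NTg. Endothelial markers summed to 211, 418 and 117 CPM in double mutants 8, 10 and 12, against 118, 403 and 169 CPM in NTg 7, 9 and 11, with 10 of 10 highest in these same libraries. Mural cell markers, at 82.5, 159 and 43.4 CPM in double mutants 8, 10 and 12, against 37.6, 159 and 72.3 CPM in NTg 7, 9 and 11, had 6 of 7 highest in double-mutant library 10 and 5 of 7 in NTg library 9. Among the double mutants, all 3 of these sums stood in the reverse order of the member sums, highest in library 10 and lowest in library 12. In NTg they were highest in library 9, where the member sum was lowest, but they were lower in library 7 than in library 11, which had the highest member sum. Ependymal markers summed to 30.4, 128 and 52.9 CPM in double mutants 8, 10 and 12, against 18.3, 39.3 and 25.5 CPM in NTg 7, 9 and 11. All 8 tested were positive, the median log2 fold change was 1.38, and 8 of 8 were highest of all 6 libraries in double-mutant library 10. The smallest p among them was that of Rarres2, with 4.38, 11.5 and 4.52 CPM in double mutants 8, 10 and 12, against 1.45, 4.02 and 2.45 CPM in NTg 7, 9 and 11 and a log2 fold change of 1.36 (SE 0.49). Neutrophil markers summed to 1756, 1084 and 58.2 CPM in double mutants 8, 10 and 12, against 655, 170.5 and 409 CPM in NTg 7, 9 and 11. They did not follow the order of the members. The fold change was positive for 12 of 12 neutrophil markers, with a median log2 fold change of 1.24. Markers of border macrophages, which CD11b beads can also bind, summed to 168, 119 and 141 CPM in double mutants 8, 10 and 12, against 129, 155 and 153 CPM in NTg 7, 9 and 11, and monocyte markers to 271, 264 and 70.5 CPM in double mutants 8, 10 and 12, against 126, 142 and 143 CPM in NTg 7, 9 and 11. Of the 9 monocyte markers, 8 had a positive and 1 a negative fold change, with a median log2 fold change of 0.97. Plac8 had the smallest p of the monocyte list, at a log2 fold change of 1.05 (SE 0.43). Astrocyte markers summed to 116, 189.8 and 149 CPM in double mutants 8, 10 and 12, against 109, 141 and 135 CPM in NTg 7, 9 and 11. Their smallest p was that of the water channel gene Aqp4, which had 5.27, 11.3 and 8.31 CPM in double mutants 8, 10 and 12, against 3.38, 3.95 and 4.09 CPM in NTg 7, 9 and 11, without overlap and with a log2 fold change of 1.12 (SE 0.30). By the adjusted p, 0 genes of any marker list passed the test. No listed marker of these cell types was at 0 in all libraries, and their part in the result was not tested. Without double-mutant library 10 and NTg library 9 together, a choice made once the data were known, 0 of 31 members passed and the median log2 fold change was 0.02 with 22 of 31 positive.

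**Figure D5:**
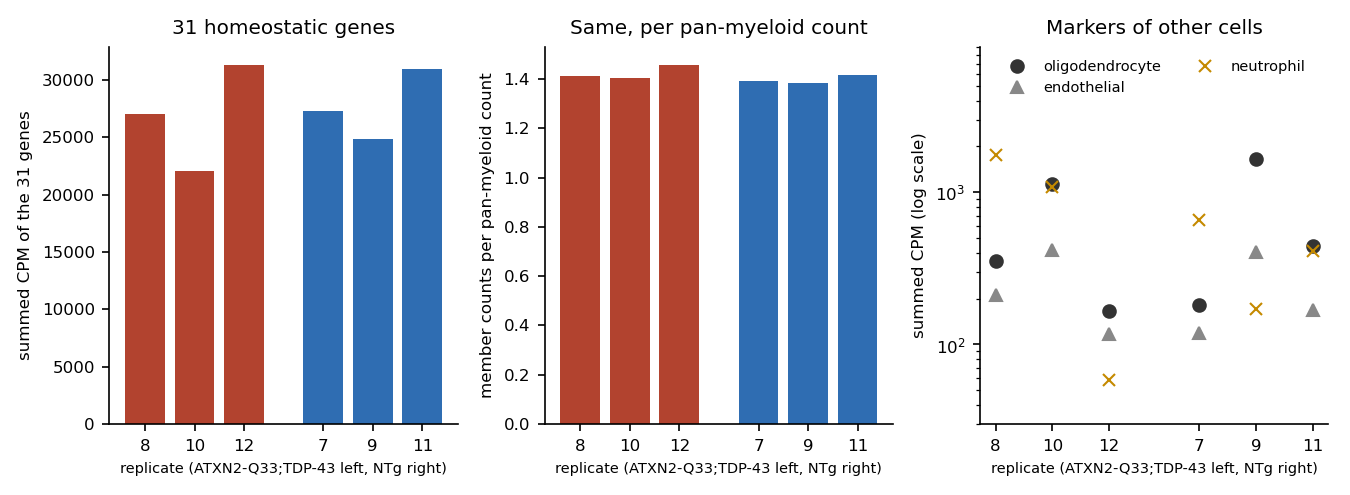
Left, summed CPM of the 31 genes; middle, member counts per pan-myeloid count; right, summed CPM of oligodendrocyte, endothelial and neutrophil markers (log axis); replicates 8, 10 and 12 of ATXN2-Q33;TDP-43 left of replicates 7, 9 and 11 of NTg in each panel. The left bars run from 22024 to 31300.0 CPM, while the middle bars lie between 1.38 and 1.46.

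Other genes of the homeostatic programme were read from a list that holds none of the members. Of 30 such genes, all tested, 0 passed in either direction, 24 fold changes were negative and 6 positive, and the median was -0.07. Smad3, a transducer of transforming growth factor beta, had 140.0, 155 and 131 CPM in double mutants 8, 10 and 12, against 161, 186 and 129.8 CPM in NTg 7, 9 and 11. The log2 fold change was -0.16 (SE 0.13) for Smad3, -0.15 (SE 0.10) for Sall3, a relative of Sall1, and -0.13 (SE 0.10) for P2ry6, a nucleotide receptor. Both library orders of the members were also seen in 19 of these 30 genes and in 11 of the 20 pan-myeloid genes, in 16 of 25 immediate early genes, in 7 of 28 disease-associated genes and in 2 of 13 heat shock genes. Disease-associated genes, known to rise as homeostatic genes fall, had 0 of 28 past the test, 22 negative and 6 positive, and a median of -0.11. Clec7a, a receptor for fungal glucans, had the smallest p of these, with 101, 102 and 87.7 CPM in double mutants 8, 10 and 12, against 161, 187 and 168 CPM in NTg 7, 9 and 11. Its groups did not overlap, with a log2 fold change of -0.83 (SE 0.10) and an adjusted p of 0.113 in edgeR's fit. Axl, a receptor related to Mertk, had 104, 97.2 and 95.5 CPM in double mutants 8, 10 and 12, against 124, 131 and 106 CPM in NTg 7, 9 and 11, without overlap. The log2 fold change was -0.28 (SE 0.10) for Axl, -0.56 (SE 0.25) for Ch25h, a cholesterol hydroxylase whose groups did not overlap either, and -0.18 (SE 0.08) for Cd63, a membrane protein of late endosomes.

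Genes known to respond to cell isolation were read from lists as well. Heat shock genes had positive fold changes in 13 of 13, with a median of 0.24 and 0 past the test, and summed to 10244, 11879 and 12202 CPM in double mutants 8, 10 and 12, against 9064, 8170.3 and 10885 CPM in NTg 7, 9 and 11. Hspa1b, an inducible heat shock chaperone, had the smallest p of these, with 1023, 1395 and 1137 CPM in double mutants 8, 10 and 12, against 621, 643 and 1002 CPM in NTg 7, 9 and 11. Its groups did not overlap, at a log2 fold change of 0.65 (SE 0.21). Immediate early genes had 17 positive and 8 negative fold changes, a median of 0.08 and 0 past the test, and summed to 28557, 24625 and 32415 CPM in double mutants 8, 10 and 12, against 26779, 22786 and 29108 CPM in NTg 7, 9 and 11. Fosb had the smallest p of that list, at a log2 fold change of 0.27 (SE 0.12). Their part in the members' values was not tested.

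Of 23 ligands and partners of the members, 21 were tested and 0 passed, with a median log2 fold change of -0.02. Axl, given above, and Itgb8, an integrin chain that activates transforming growth factor beta, had the smallest p of this list, Itgb8 with a log2 fold change of 1.23 (SE 0.55). The other genes named here were chosen by their tie to a member after their values were seen. Csf1, a ligand of Csf1r, had 226, 267 and 254 CPM in double mutants 8, 10 and 12, against 262, 315 and 252 CPM in NTg 7, 9 and 11, and a log2 fold change of -0.15 (SE 0.11). Gas6 and Pros1, whose products bridge Mertk to dying cells, had 0.07 (SE 0.09) and -0.10 (SE 0.12), and Tyrobp, the signalling adaptor that pairs with Siglech, -0.10 (SE 0.14). Spi1, which codes for PU.1, had 281, 264 and 267 CPM in double mutants 8, 10 and 12, against 294, 293 and 274 CPM in NTg 7, 9 and 11, and a log2 fold change of -0.09 (SE 0.08). Its level differed little between libraries, unlike that of most members. Cx3cl1, the ligand of Cx3cr1 known from neurons, averaged 5.32 ± 2.69 CPM in the double mutants and 5.07 ± 4.21 CPM in NTg (SD, n = 3 each), while Il34 and Selp did not reach the filter.

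Promoter windows, 250 bases before to 50 after the start of a gene in RefSeq's GRCm38.p6 annotation, were at hand for 22 of 31 members in 26 windows; Csf1r, Gpr34, Tmem119, Selplg, Plxdc2, Ecscr, Gal3st4, Bin1 and Marcks had none in the table. The motif GAGGAAGT of PU.1, searched on both strands, stood in 2 of 26 windows (7.69%), against 3.20% of all 32851 windows. Both are shown, as the only windows of members that held this motif. Their genes differed in how they followed the libraries, and a tie of this to the motif was not tested. Slco2b1 (chr7:99711291-99711590, minus strand) was lowest in double-mutant library 10 like most members, at 792, 594 and 910.4 CPM in double mutants 8, 10 and 12, against 814, 688 and 879 CPM in NTg 7, 9 and 11. Hpgds (chr6:65144681-65144980, minus strand) was nearly level over the libraries. Each is written 5′ to 3′ on the strand of the gene with the motif in capitals.
Slco2b1: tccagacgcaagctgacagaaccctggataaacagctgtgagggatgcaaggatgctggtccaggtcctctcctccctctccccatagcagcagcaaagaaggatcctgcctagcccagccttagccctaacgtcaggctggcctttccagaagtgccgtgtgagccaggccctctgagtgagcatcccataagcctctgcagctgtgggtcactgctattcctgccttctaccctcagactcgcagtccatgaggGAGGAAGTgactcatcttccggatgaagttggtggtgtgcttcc
Hpgds: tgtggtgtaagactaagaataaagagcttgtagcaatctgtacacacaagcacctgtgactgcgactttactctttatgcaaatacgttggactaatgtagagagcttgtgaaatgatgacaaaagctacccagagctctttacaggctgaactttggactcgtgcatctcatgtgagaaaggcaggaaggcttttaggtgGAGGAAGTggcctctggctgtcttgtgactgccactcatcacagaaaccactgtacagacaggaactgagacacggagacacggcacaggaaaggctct
The motif begins at base 7 of the transcript of Slco2b1 and at position -49 of Hpgds. Of the other motifs searched on both strands, the composite motif of PU.1 with an interferon regulatory factor was in the window of Lpcat2 (3.85% of windows, against 2.72% of all). The MEF2 motif was in that of Cx3cr1 (3.85%, against 3.69%), and TGCTGAC of MAF factors in those of Crybb1 and Sparc (7.69%, against 4.67%). GTCTAGAC of SMAD proteins was in none (0.213% of all). The letters TATAAA of the TATA box were in those of Crybb1, Fcrls, Golm1 and Lpcat2 (15.4%, against 13.6%). They lay at position -30 in Crybb1 and -217 in Fcrls. In Golm1 and Lpcat2 they lay on the opposite strand, at -185 and -126. The PU.1 motif and the composite motif with an interferon regulatory factor can overlap in their GGAA core. A match is a description of the letters in the window.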

How the data were processed

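Total RNA of 6 libraries, 3 from ATXN2-Q33;TDP-43 and 3 from NTg mice, was depleted of ribosomal RNA and prepared with a stranded low-input kit, per the labels' protocols. The deposited values are raw fragment counts per gene, made with featureCounts 1.6.1 and GENCODE vM25, strand used, per the file headers. Reads were trimmed with Trim Galore 0.4.1 and aligned with TopHat2 to mm10, per the submitters' processing notes. A fragment over several genes of one strand counts for each. The table's 6 columns of other samples were not used.

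Symbols matched for 55141 of 55401 genes. Counts were tested with edgeR 4.0.16 (R 4.3.3; TMM, filterByExpr with a minimum count of 10, quasi-likelihood test, 16248 genes), with DESeq2 1.42.0 and limma 3.58.1 (voom) as alternatives. CPM used TMM library sizes, and a pseudocount of 0.5 CPM was added before logs. Levels between genes are CPM per kilobase of exon in place of the planned TPM, because Gm23935, with 57 exon bases, took 70.7% to 74.8% of the TPM total. Each library is a pool of 3 cords; p-values measure the spread between pools. Intervals are at 95%.

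The members and lists were chosen with earlier results of these data known. Every member is named; values in each library are given for those with the highest levels, the smallest p and the largest spread. Of the gene lists described in detail, some of the genes with the smallest p are named. Of the marker lists, the gene with the smallest p is named where that p, unadjusted, was under 0.05. Sall1 and the ligands and partners were named by role. The values of 1 marker gene are not reported here.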

Additional observations from a re-analysis of the deposited data

How the results depend on the processing

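No member passed the test under any alternative run, and the members' median log2 fold change stayed within the spread between libraries, from -0.16 with combined alignments as a covariate to 0.09 without ATXN2-Q33;TDP-43 library 10. Its sign was not stable: leaving out 1 library at a time gave -0.15 to 0.09. Over all genes edgeR called 0, with 368 at an unadjusted p under 0.05; DESeq2 called 7, no filter on low counts 6 of 29608, neighbouring sample codes as a covariate 71, and leaving out NTg library 9 and ATXN2-Q33;TDP-43 library 10 together 1, while leaving out 1 library at a time gave 0 to 2. The cause was not tested. Scaling to pan-myeloid genes gave 0.01 for Plxdc2 and 0.02 for Hpgds, and combined alignments as a covariate -0.08 for Txnip. The scaling of spreads to pan-myeloid counts and the removal of both libraries together were chosen after seeing the data. No paired analysis was possible because the groups share no replicate numbers and the labels name no pairs; this refers to pairs given by the design. The fit with neighbouring sample codes (7 with 8, 9 with 10, 11 with 12) treats code order as pairs, and in it 0 of 31 members passed and their median was -0.04. The planned comparison of the Siglech and Cd33 proteins was not run. With 3 pools a group, the unadjusted 95% intervals of the members reached 0.18 to 0.48 log2 units either side. They are not the detection limit of the test, which was adjusted over all genes.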
